A study of Mus musculus with 13 samples.

Results

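Stoml1, Ddx49, Nefh, Abcf3, Mylpf, Abtb1 and Epp13 are 7 mouse genes with no established role in germ cells whose array signal was much higher in Stella-positive than in Stella-negative cells of day 7 embryoid bodies. The members were chosen on the size of that difference, so the day 7 sort is given below as a description, with no test. The 7 genes were measured by 11 probe sets, out of 18193 genes named by a probe set with 1 symbol and 45037 probe sets without the array's controls. A filter on dim probe sets kept 9 of the 11, with at least 1 for each gene, and 30023 of the 45037. No probe set named a member together with another gene (0 probe sets).

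Total RNA of 13 samples was hybridised to Affymetrix Mouse430_2 arrays, 1 array per sample, in 5 groups. Embryonic stem cells (ESC) with a green fluorescent reporter of Stella were sorted into a Stella-negative group (n = 3) and a Stella-positive group (n = 2), or left unsorted (n = 2). Embryoid bodies, the aggregates in which such cells differentiate, were sorted at day 7 into Stella-negative cells, which the submitters describe as not germ cells (n = 2), and Stella-positive cells, which they describe as primordial germ cells made in vitro (n = 4). The labels name no other treatment and give no strain, clone number or pooling of cultures. The array description file of Stella-positive ESC array 2, 1 of only 2 in its group, carries the word BAC, which those of the other 12 arrays do not, so whether it came from the same reporter line as the others is not known. Nor is it known whether replicates were separate cultures, so p-values reflect the spread of these arrays alone, which could be technical.

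Primordial germ cells are the embryonic founders of eggs and sperm. They switch off the programme of the surrounding somatic tissue and keep or regain many genes of pluripotent cells. Stella is the protein of Dppa3, a maternal and germ cell factor that protects DNA methylation in the early embryo and marks primordial germ cells, and Dppa3 is also made by a changing fraction of ESC. The 7 genes come from unrelated families. Ddx49 encodes a DEAD-box RNA helicase whose yeast relative works in ribosome biogenesis. Abcf3 encodes an ATP-binding cassette protein without membrane spans, related to yeast Gcn20, which acts with Gcn1 on the amino acid sensor kinase Gcn2. Stoml1 encodes a stomatin-like protein of endosomal membranes, and Abtb1 an ankyrin repeat protein with the BTB domain that many adaptors of ubiquitin ligases carry. Nefh encodes the heavy neurofilament subunit of axons, Mylpf the regulatory myosin light chain of fast skeletal muscle, and Epp13 a protein named for the epididymis.

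Promoter windows show how unlike the genes' starts are. RefSeq windows of 300 bases (250 before and 50 after a gene's start, build GRCm38.p6) were found for 6 of the 7 genes, in 8 windows of 32851; Nefh was not matched. A Ddx49 window, an Abtb1 window and the Mylpf window are printed 5′ to 3′ on the gene's strand because they hold, in turn, the full cyclic AMP response element, the most GC boxes among the members, and neither. Capitals mark matches to TGACGTCA in Ddx49 and to GGGCGG in Abtb1, where the last run joins 2 overlapping matches. The Ddx49 window is chr8:70302422-70302721 on the minus strand, the Abtb1 window chr6:88841886-88842185 on the minus strand and the Mylpf window chr7:127211358-127211657 on the plus strand.
Ddx49: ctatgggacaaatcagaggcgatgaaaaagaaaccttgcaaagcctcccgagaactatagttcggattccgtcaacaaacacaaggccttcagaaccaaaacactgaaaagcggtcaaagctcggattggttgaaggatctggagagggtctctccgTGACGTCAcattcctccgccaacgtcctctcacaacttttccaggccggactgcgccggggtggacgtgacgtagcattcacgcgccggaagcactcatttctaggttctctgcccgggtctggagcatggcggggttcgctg
Abtb1: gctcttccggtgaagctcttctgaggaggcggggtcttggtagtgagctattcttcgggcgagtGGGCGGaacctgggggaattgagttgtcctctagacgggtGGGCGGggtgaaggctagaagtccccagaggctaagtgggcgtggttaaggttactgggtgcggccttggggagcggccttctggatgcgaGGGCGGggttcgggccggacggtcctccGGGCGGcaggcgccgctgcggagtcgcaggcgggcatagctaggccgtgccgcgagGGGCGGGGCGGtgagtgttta
Mylpf: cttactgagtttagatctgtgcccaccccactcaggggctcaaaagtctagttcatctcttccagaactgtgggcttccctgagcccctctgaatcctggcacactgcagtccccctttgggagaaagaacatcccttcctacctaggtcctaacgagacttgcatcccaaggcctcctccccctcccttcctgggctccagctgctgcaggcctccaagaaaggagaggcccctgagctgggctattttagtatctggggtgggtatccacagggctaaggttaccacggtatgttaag
Both strands of every window were searched for 7 motifs. TGACGTCA stood in both Ddx49 windows, which overlap each other, and in 1.79% of all windows. GGGCGG stood in the windows of Abtb1 (6 matches), Stoml1 (1) and Abcf3 (1), against 35.7% of all windows. The E-box CACGTG, the octamer ATGCAAAT, the E2F sites TTTGGCGC and TTTCGCGC, and the TATA box TATAAA stood in 0 of the 8 windows, against 7.15%, 1.74%, 0.514%, 0.323% and 13.6% of all windows. CpG content, as observed over expected, was 0.949 and 1.06 in the Ddx49 windows, 0.923 in Abtb1 and 0.871 in Abcf3, against a median of 0.384 over all windows. It was 0.441 in Stoml1, 0.136 and 0.245 in the Epp13 windows and 0.0890 in Mylpf. No single base composition was shared by the 6 genes.

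Across the arrays, each deposited column was scaled to a common 2% trimmed mean, because those means spanned 27.1-fold (8.48 on the dimmest array, Stella-positive day 7 array 4, and 230.0 on the brightest). Levels below are scaled signal, and differences are on the log2(scaled signal + 10.5) scale with the limma standard error (SE); the constant shrinks differences of dim probe sets. A probe set's brightness also depends on its own probes, so levels are compared between arrays and not between genes. Actin control probe sets gave a 3'/5' ratio, which rises as labelled RNA gets shorter, of 1.12 to 1.23 in ESC. Among day 7 samples it stood at 5.48 and 5.85 in the Stella-negative group and at 2.04, 2.17, 4.89 and 5.16 in the Stella-positive group. The Gapdh ratio was 0.803 to 0.869, 3.03 and 3.18, and 1.23 to 2.09 in the same order of groups. All day 7 arrays were hybridised on a day apart from the ESC arrays, so culture and hybridisation day cannot be told apart. Dppa3 matched the label of each sorted sample: day 7 cells had 74.6 and 101.4 (Stella-negative) and 728 to 1138 (Stella-positive), and ESC had 139 to 245 and 941 and 1473. Of 11 germ cell and pluripotency markers, 8 were called higher and 0 lower in the Stella-positive day 7 cells. Of all 14007 genes tested, 1434 were called higher and 1270 lower. Dppa3 is among the 8, and the sort on its reporter favours its call. Those not called were Nanog (0.55 ± 0.26), Prdm14 (0.86 ± 0.31) and Prdm1 (-0.19 ± 0.26).

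The Stella-positive day 7 cells had the 7 genes at or near the level of ESC, with Ddx49 below that of sorted ESC, and the Stella-negative day 7 cells had them low. For every gene's brightest probe set, both Stella-negative day 7 arrays lay below all the other 11 arrays, as they did for 10.9% of the 14007 genes kept by the filter. The choice of members favours this pattern, so nothing is read from it. The gap between the lowest of those 11 and the higher of the 2 ran from 2.67-fold for Abtb1 to 6.16-fold for Epp13. In bulk RNA, fewer cells that express a gene and less RNA per cell cannot be told apart.

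**Figure D1:**
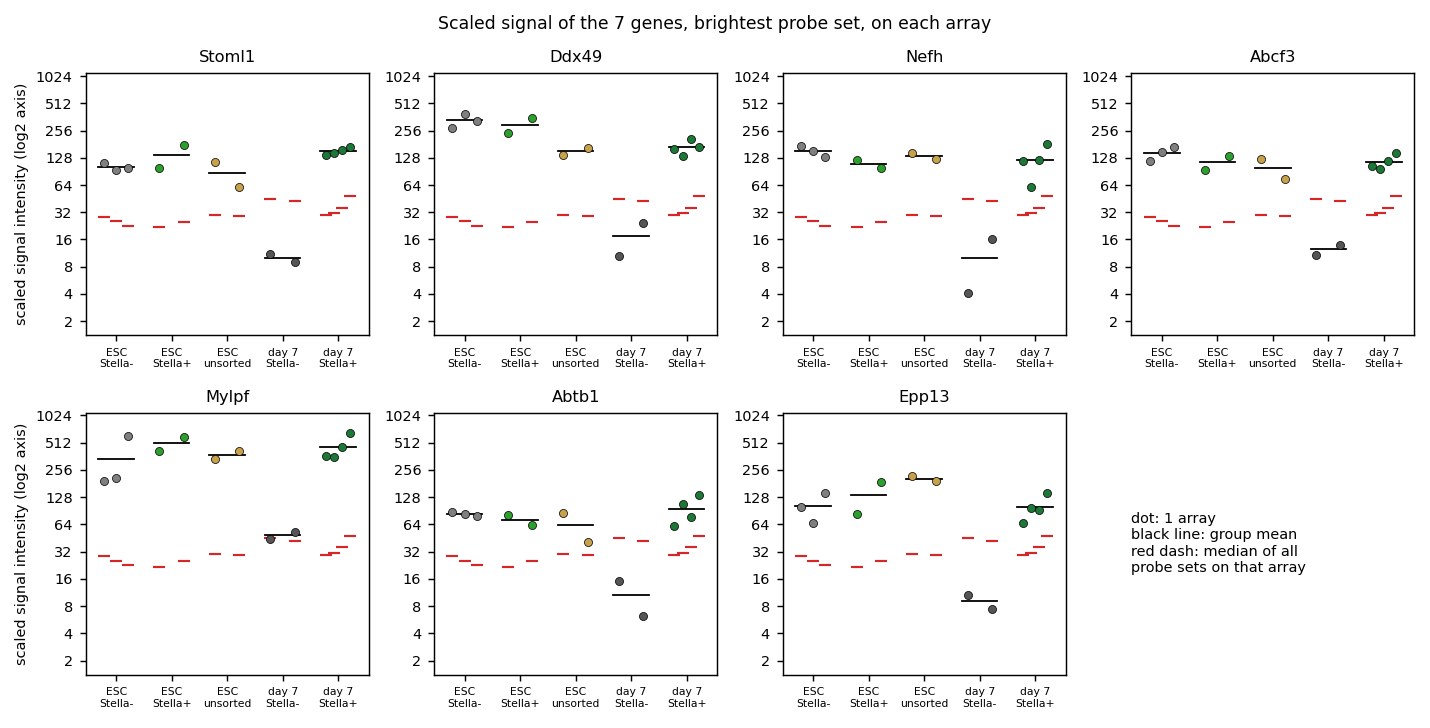
Scaled signal of the brightest probe set of each of the 7 genes on a log2 axis, with 1 dot per array in 5 groups, a black line for each group's mean and a red dash for the median of all probe sets on that array. The 2 Stella-negative day 7 arrays lie below the other 11 for each gene, and below their own median for each gene except Mylpf.

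Among the genes of RNA and protein synthesis, Ddx49 (probe set 1455563_at) had a scaled signal of 275, 389.9 and 327 in Stella-negative ESC, 241 and 349 in Stella-positive ESC and 138 and 165 in unsorted ESC. It was 10.4 and 24.4 in Stella-negative and 159.7, 135, 207 and 167 in Stella-positive day 7 cells. Sorted ESC were thus highest, and unsorted ESC and Stella-positive day 7 cells overlapped each other below them. The day 7 difference, on which the gene was chosen, was 2.70 ± 0.26 (SE). Against ESC of the same fraction, Ddx49 differed by -0.78 ± 0.26 in Stella-positive day 7 cells, with no overlap between the arrays, and by -3.65 ± 0.28 in Stella-negative ones. It was the member farthest below its ESC level in both fractions.

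Abcf3 (1426747_at) was at 117, 147 and 169.7 in Stella-negative ESC, 94.2 and 134 in Stella-positive ESC, and 123 and 74.7 in unsorted ESC. In day 7 cells it was at 10.8 and 14.0 in the Stella-negative group and at 104, 97.0, 118 and 144 in the Stella-positive group. All 4 Stella-positive day 7 arrays fell inside the range of the 7 ESC arrays. The day 7 difference was 2.45 ± 0.28, and the Stella-positive day 7 mean stood 0.023 ± 0.28 from that of Stella-positive ESC, with overlapping arrays.

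Stoml1 (1452738_at) had the largest day 7 difference of the 7 genes. Its scaled signal was 113, 92.6 and 97.6 in Stella-negative ESC, 97.5 and 176 in Stella-positive ESC, and 114 and 61.4 in unsorted ESC. Day 7 cells had 10.9 and 9.06 in the Stella-negative and 136, 144, 155 and 168 in the Stella-positive group. The mean was highest in the last group (151 ± 13.9, SD, n = 4), whose arrays overlapped those of Stella-positive ESC. The day 7 difference was 2.97 ± 0.29, rank 2 among the rises of the 14007 genes tested, directly after Dppa3 at 3.26 ± 0.26.

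Abtb1 (1417000_at) was at 87.6, 83.9 and 79.5 in Stella-negative ESC, 80.6 and 63.0 in Stella-positive ESC, and 86.4 and 40.6 in unsorted ESC. It was at 15.2 and 6.16 in Stella-negative and at 61.2, 107, 76.6 and 136 in Stella-positive day 7 cells. Of these 4 arrays, 2 were above every ESC array and 2 were within the ESC range. The day 7 difference was 2.30 ± 0.35, the smallest of the 7, at rank 16.

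Nefh, the neurofilament gene (1424847_at), was at 171, 150.4 and 129.7 in Stella-negative ESC, 121 and 99.3 in Stella-positive ESC, and 143 and 125 in unsorted ESC. It was at 4.08 and 16.05 in Stella-negative and at 118, 61.3, 120.2 and 182 in Stella-positive day 7 cells. The Stella-positive day 7 arrays spread on both sides of the ESC range, with array 2 below it and array 4 above it. Its day 7 difference was 2.65 ± 0.35.

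Mylpf, the fast muscle light chain gene (1448371_at), varied widely in ESC, at 195, 209 and 605 in Stella-negative, 418 and 596 in Stella-positive and 336 and 415 in unsorted cells. At day 7 it was at 44.0 and 52.9 in the Stella-negative and at 367, 357, 455 and 646 in the Stella-positive group. Among Stella-negative ESC, array 3 alone reached the level of Stella-positive cells, and arrays 1 and 2 lay lowest of the ESC. The difference at day 7 was 2.95 ± 0.36, at rank 3.

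Epp13 (1456804_at) was at 98.9, 65.6 and 140.3 in Stella-negative ESC, 82.7 and 188 in Stella-positive ESC, and 217 and 193 in unsorted ESC. It was at 10.6 and 7.39 in Stella-negative and at 66.4, 96.3, 92.1 and 141 in Stella-positive day 7 cells. Unsorted ESC were highest, above all sorted ESC arrays, and the Stella-positive day 7 arrays lay within the ESC range. Day 7 cells differed by 2.45 ± 0.35.

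The order of group means put Stella-negative day 7 cells last for all 7 genes, without overlap with the group before it. Among the other 4 groups, neighbours in the order overlapped for Stoml1, Nefh, Abcf3, Mylpf and Abtb1. The exceptions were Ddx49, where Stella-positive ESC did not overlap Stella-positive day 7 cells, and Epp13, where unsorted ESC did not overlap Stella-positive ESC. The members held ranks 2, 3, 5, 6, 9, 10 and 16 of the day 7 rises. Rank 4 was Smc1b, a meiotic cohesin gene, at 2.86 ± 0.55, rank 7 Ube2s, a ubiquitin-conjugating enzyme gene of mitosis, at 2.52 ± 0.20, and rank 8 Dmrt1, a transcription factor gene of germ cells and gonads, at 2.49 ± 0.37. All 7 brightest probe sets were among the 8.54% of probe sets called higher at day 7 (limma adjusted p under 0.05), as the choice of members made them; 7.87% were called lower. With arrays scaled to their median, 2828 probe sets were called higher and 710 lower, against 2564 and 2362.

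The level of a member against all probe sets of the same array does not depend on the scaling. For 6 of the 7 genes, the brightest probe set was below its own array's median on both Stella-negative day 7 arrays and above it on the other 11. Of all 14007 genes kept by the filter, 93 (0.664%) had that pattern, and 63 had the reverse one. The pattern was described after the values were seen, and the choice of members favours it, so nothing is read from the members' share. Mylpf was the member without it, because it was above the median on Stella-negative day 7 array 2.

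Against ESC of the same fraction, the Stella-negative cells differed more than the Stella-positive ones for each gene. From Stella-negative ESC to Stella-negative day 7 cells, the 7 genes differed by -2.19 ± 0.37 (Abtb1) to -3.65 ± 0.28 (Ddx49). All 7 were lower without overlap between the groups, as were 27.2% of all genes. From Stella-positive ESC to Stella-positive day 7 cells they differed by -0.78 ± 0.26 (Ddx49) to 0.32 ± 0.35 (Abtb1), and Ddx49 alone did not overlap, where 38.2% of all genes did not overlap in either direction. These comparisons share arrays with the day 7 sort that chose the genes and are therefore given with no test.

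**Figure D2:**
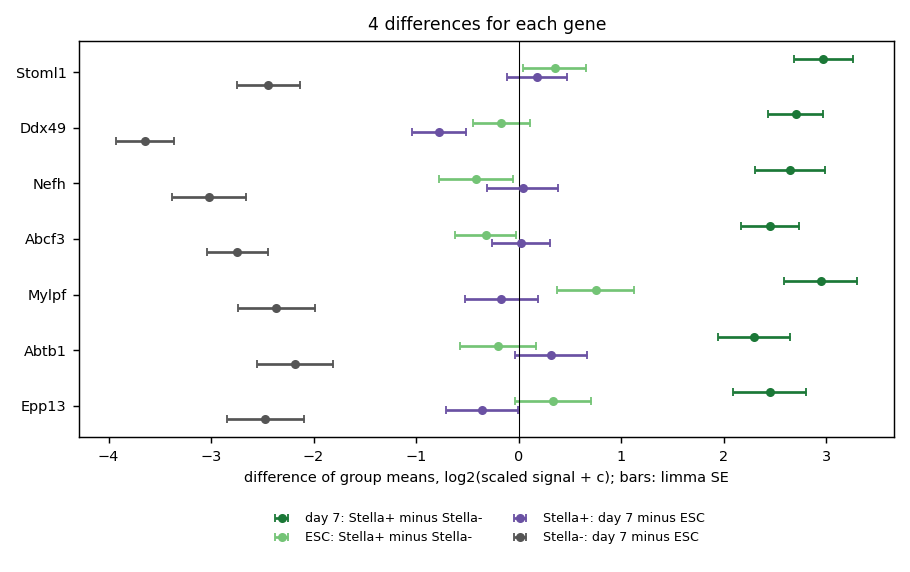
Differences of group means on the log2(scaled signal + c) scale, c being 10.5, for the brightest probe set of each gene, with bars for the limma SE. The day 7 sort lies between 2.30 and 2.97 and the change in Stella-negative cells between -3.65 and -2.19, while the ESC sort and the change in Stella-positive cells lie between -0.78 and 0.75.

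RNA quality moved with the sort. The actin ratio was highest on the 2 arrays where the members were low, and the part of RNA quality in the differences was not tested. Stella-positive day 7 arrays 3 and 4 had actin ratios of 4.89 and 5.16, against 5.48 and 5.85 on the Stella-negative arrays. They were also the dimmest of all arrays. Scaling multiplied their deposited signal by 3.62 and 12.4, against 1.27 and 1.47 for Stella-positive day 7 arrays 1 and 2. With array weights they had the lowest weights, 0.492 and 0.224. How far this shaped the members' scaled levels on them was not tested. In scaled signal, arrays 3 and 4 were both above arrays 1 and 2 for Stoml1, Ddx49, Nefh, Abcf3 and Mylpf. For Abtb1 (76.6 and 136 against 61.2 and 107) and Epp13 (92.1 and 141 against 66.4 and 96.3) array 3 lay between arrays 1 and 2. The dimmer Ddx49 probe set 1435681_s_at was at 21.1 and 10.8 there, against 25.9 and 19.9, so array 4 was its lowest. The Gapdh ratios of these 2 arrays, at most 2.09, stayed below the 3.03 and 3.18 of the Stella-negative arrays. Within the only hybridisation run that held both day 7 groups (Stella-negative array 2 and Stella-positive arrays 1 to 3), the difference was 2.99 for Stoml1, 2.66 for Mylpf, 2.44 for Abtb1, 2.40 for Epp13, 2.33 for Ddx49, 2.25 for Abcf3 and 2.003 for Nefh.

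Further probe sets existed for 2 of the genes, and they did not all repeat the brightest one. Ddx49 probe set 1435681_s_at was dimmer, at 28.3, 46.4 and 53.1 in Stella-negative ESC, 34.04 and 32.9 in Stella-positive ESC, and 19.4 and 26.3 in unsorted ESC. It was at 4.36 and 4.88 in Stella-negative and at 25.9, 19.9, 21.1 and 10.8 in Stella-positive day 7 cells. The direction was that of the brighter probe set without overlap, with a day 7 difference of 0.96 ± 0.39. Ddx49 probe set 1457947_at did not pass the filter, with 1.80 to 36.0 on the 13 arrays, and its groups overlapped.

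Abcf3 probe set 1426748_s_at ran the other way. It was at 25.9 to 31.5 in Stella-negative ESC, 35.0 and 27.9 in Stella-positive ESC, and 45.5 and 31.9 in unsorted ESC. At day 7 it was at 85.8 and 102 in the Stella-negative and at 63.0, 78.2, 52.7 and 68.0 in the Stella-positive group. The Stella-negative day 7 arrays were highest, and all day 7 arrays were above all ESC arrays. Its day 7 difference was -0.47 ± 0.30, and it stood 1.44 ± 0.32 above ESC in the Stella-negative and 0.85 ± 0.30 in the Stella-positive fraction. The third Abcf3 probe set, 1452177_at, did not pass the filter, at 1.80 to 38.5 on the 13 arrays. The annotation ties all 3 Abcf3 probe sets to the same sequence record. The rise of Abcf3 therefore rests on 1 of 3 probe sets, and which of them follows the gene's transcript was not tested.

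**Figure D3:**
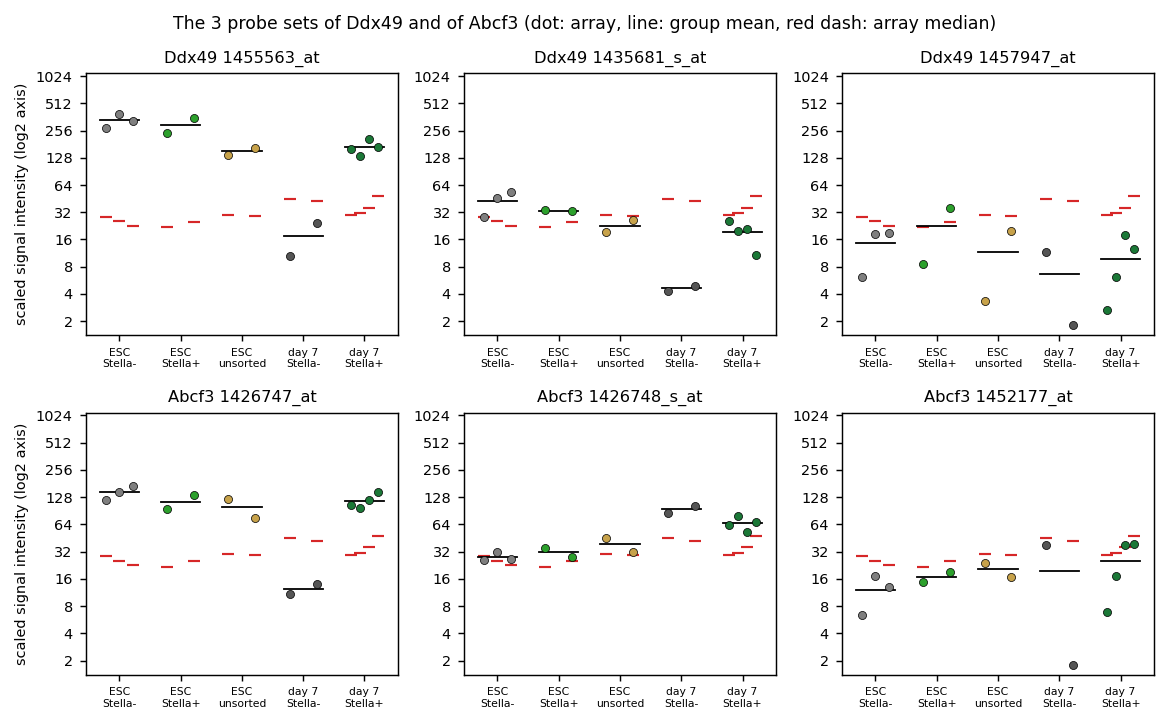
Scaled signal on a log2 axis of the 3 probe sets of Ddx49 (top) and of Abcf3 (bottom), with 1 dot per array, a line for the group mean and a red dash for the array's median. The brightest probe sets (left) are lowest in Stella-negative day 7 cells, whereas Abcf3 1426748_s_at is highest there, at 85.8 and 102.

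In ESC, the Stella sort shares no array with the day 7 sort and was tested, although an earlier comparison of the 2 sorts in these data had already named some of the genes. None of the members' 9 probe sets was called (0 of 9), against 0.00333% of all probe sets, which is Dppa3 alone at 2.51 ± 0.27 (limma adjusted p = 0.00168); 834 probe sets had an unadjusted p under 0.05, none of them a member's. Mylpf was at 0.75 ± 0.38 (95% confidence interval -0.042 to 1.55, limma adjusted p = 0.9999), the largest of the 7 in size. Stoml1 was at 0.35 ± 0.31 (interval -0.30 to 0.9996), Epp13 at 0.33 ± 0.37 (-0.45 to 1.12), Ddx49 at -0.17 ± 0.28 (-0.76 to 0.42), Abtb1 at -0.20 ± 0.37 (-0.98 to 0.58), Abcf3 at -0.32 ± 0.30 (-0.95 to 0.31) and Nefh at -0.41 ± 0.36 (-1.18 to 0.35). Stella-positive ESC lay below Stella-negative ESC on every array for Nefh, and the other 6 genes overlapped; 22.8% of all genes did not overlap in either direction. Stella-positive ESC array 2, hybridised apart from the other sorted ESC and with the word BAC in its description file, held the higher Stoml1 (176 against 97.5) and Epp13 (188 against 82.7) level of its group, and without it Stoml1 was at -0.044 and Epp13 at -0.21. Without it, too, Mylpf was at 0.50, Abtb1 at -0.047, Nefh at -0.29, Ddx49 at -0.43 and Abcf3 at -0.55, none called. Without Stella-positive ESC array 1, Ddx49 was at 0.090.

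Unsorted ESC were compared with each sorted fraction. The unsorted arrays had a hybridisation day of their own, so the lack of a sort and the day cannot be told apart. The summed signal of the 5 fibroblast markers was 1087 to 3539 in unsorted ESC. It was 318 to 378 in Stella-negative and 57.2 to 562 in Stella-positive ESC. The part of such signal in the differences below was not tested. No member was called against Stella-negative ESC (0 of 9, against 2.03% of all probe sets). Against Stella-positive ESC it was also 0 of 9, against 3.47%. At an unadjusted limma p under 0.05 stood Ddx49 in both comparisons and Epp13 in the comparison with Stella-negative ESC. Of all 30023 probe sets, 4891 did so against Stella-negative and 5362 against Stella-positive ESC, so nothing is read from these members. Ddx49 was lower in unsorted than in Stella-negative ESC without overlap, at -1.06 ± 0.28 (95% confidence interval -1.65 to -0.47, limma adjusted p = 0.0585). Over 26 alternatives its adjusted p lay between 0.0196 and 0.367, and 7 of them called it. Without Stella-positive day 7 array 4, whose signal entered only through the shared spread, its adjusted p was 0.0388. Against Stella-positive ESC it was at -0.90 ± 0.31 (adjusted p = 0.122). Epp13 was higher than in Stella-negative ESC without overlap, at 0.99 ± 0.37 (interval 0.21 to 1.78, limma adjusted p = 0.183), and stood 0.66 ± 0.41 from Stella-positive ESC (adjusted p = 0.434). Without Stella-positive ESC array 2, Ddx49 was at -0.64 (adjusted p = 0.536) and Epp13 at 1.21 (adjusted p = 0.273) against Stella-positive ESC. Between unsorted and Stella-negative ESC, 39.5% of all genes did not overlap. The adjusted p of the other 5 genes ran from 0.392 to 0.897 over both comparisons.

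Over the 13 arrays, the genes followed each other through the shared low of the Stella-negative day 7 arrays. The 21 pairs of members had a Pearson r of 0.776 to 0.943, median 0.850, on the log2 scale. Over the 7 ESC arrays alone the same pairs ran from -0.861 to 0.641 with a median of 0.108, and 12 of the 21 were above 0. These points share arrays and the 5 groups, and the correlations carry no test.

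The genes most like each member over the 13 arrays, among 14000 genes that were not members, were taken by Pearson r. For Ddx49 they were the ubiquitin ligase gene Stub1 (0.978), the ribonuclease H2 gene Rnaseh2a (0.973) and the exoribonuclease gene Eri3 (0.972). For Stoml1 they were the proton pump gene Atp6v1f (0.965), the vesicle fusion gene Stxbp2 (0.964) and Mnd1, which acts in meiotic recombination (0.962). Abcf3 and Nefh shared the proteasome activator partner gene Psme3ip1 as their closest gene (0.964 and 0.942). After it came Mrm2 (0.943), a mitochondrial ribosomal RNA methyltransferase gene, and Coa7 (0.941) for Abcf3, and Pycard (0.938), the inflammasome adaptor gene, and Pdcd2 (0.938) for Nefh. The closest to Mylpf were the glutathione transferase gene Gsta4 (0.987), the transcription factor IIH gene Gtf2h1 (0.964) and the nucleolar gene Nop56 (0.958). Abtb1 was followed by Tmem208 (0.925), Srrd (0.920) and Mif4gd (0.915), and Epp13 by Cebpzos (0.952), the mitochondrial ribosome gene Mrps18b (0.932) and the phosphatase gene Ppp5c (0.916). The day 7 sort differences of these genes ran from 0.60 ± 0.16 for Psme3ip1 to 2.11 ± 0.27 for Srrd.

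Relatives of each gene showed how far its family moved in the day 7 sort, where the median over all 14007 genes was -0.088 and 1434 genes were called higher and 1270 lower. Of 12 DEAD-box helicases of ribosome biogenesis, 5 rose, 0 fell and 7 did not pass, with a median of 0.56. The risers were Ddx27 (1.25 ± 0.29), Ddx47 (1.14 ± 0.21), Ddx24 (0.89 ± 0.26), Ddx56 (0.75 ± 0.21) and Ddx51 (0.72 ± 0.23). Of 10 genes of the ABCF family and the Gcn2 pathway, 2 rose, 0 fell and 8 did not pass, with a median of 0.41. Abcf2, another ABCF gene, rose by 1.15 ± 0.18 (limma adjusted p = 0.000618) and Gcn1, the partner of Gcn2, by 1.02 ± 0.31. Gcn2 itself, named Eif2ak4, was at 0.31 ± 0.38, and its effector Atf4 at 0.55 ± 0.25 (adjusted p = 0.148).

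Of 4 stomatin family genes, Stoml2, a mitochondrial inner membrane scaffold gene, rose by 1.23 ± 0.26 and the prohibitin gene Phb2 by 0.88 ± 0.22, and 2 did not pass, with a median of 0.54. Stom was at 0.17 ± 0.28. Among 10 BTB and ankyrin genes 3 rose and 1 fell, with a median of -0.27. Btbd11, like Abtb1 a protein with ankyrin repeats and a BTB domain, rose by 1.58 ± 0.27, Rcbtb1 by 0.88 ± 0.22 and Btbd9 by 0.86 ± 0.26, and Btbd3 fell by 1.30 ± 0.24. The named relative Abtb2 was at -0.94 ± 0.47 (adjusted p = 0.178).

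For Nefh, 6 other intermediate filament genes were tested. They include Vim and Sync (-1.24 ± 0.44, not called), which are not particular to nerve cells and enter the median below. Ina, the internexin that assembles with neurofilaments, rose by 0.92 ± 0.30 (limma adjusted p = 0.0490), Vim fell by 2.04 ± 0.48, and 4 did not pass, with a median of -0.55. The light and medium neurofilament genes Nefl and Nefm, partners of Nefh in axons, were at -0.22 ± 0.28 and -0.50 ± 0.54. Of 8 neuron markers tested 0 rose and 1 fell, and the summed signal of the 10 listed was 634 to 909 in Stella-positive and 796 to 939.7 in Stella-negative day 7 cells. Of the 10, 1 (Snap25) was below the array's median on every Stella-positive day 7 array, and 5 were so on both Stella-negative ones. The Stella-positive group has more arrays, which makes its condition harder to meet, so these counts are not compared. Stmn2 made up much of both sums, with means of 387 in Stella-positive and 329 in Stella-negative day 7 cells.

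For Mylpf, 16 other fast skeletal sarcomere genes were listed and 9 passed the filter: 0 were called higher and 1 lower, 8 were not called, and the median was 0.032. The calcium pump gene Atp2a1 fell by 1.41 ± 0.45. Tnni2, the fast troponin I gene, was at 1.78 ± 0.89 (limma adjusted p = 0.181), from 6.54 to 406 on the Stella-positive day 7 arrays, and Mybpc2 at 1.24 ± 0.44 (adjusted p = 0.0667). Those not kept were Myl1, Tnnt3, Tnnc2, Myh1, Myh2, Myh4 and Myh8. Of 10 skeletal muscle markers, 6 were not kept (Myog, Myf5, Myf6, Pax7, Mymk and Cdh15) and lay below the median on every Stella-positive day 7 array. On both Stella-negative day 7 arrays, 7 of the 10 lay below it, a condition over fewer arrays, so these counts are not compared. Of the 4 tested, 0 rose and Pax3 fell, and the summed signal of the 10 was 120 to 299.9 in Stella-positive and 301 to 346 in Stella-negative day 7 cells. Of 9 other myosin light chains 0 rose and 3 fell (median -1.29): the heart chains Myl7, Myl4 and Myl2 fell by 3.46 ± 0.84, 3.25 ± 0.80 and 2.69 ± 0.75. All 6 cardiac markers fell. Blood, endothelium, endoderm and fibroblast markers had 3 of 5, 2 of 4, 5 of 5 and 3 of 5 lower and 0 higher. The Stella-positive day 7 arrays differed widely in such signal. Its sum ran from 125 to 7463 for endoderm, 203 to 1197 for cardiac and 79.0 to 370 for blood markers. On the Stella-negative day 7 arrays these sums were 19100 to 20503, 3222 to 3498 and 4127 to 4313.

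**Figure D4:**
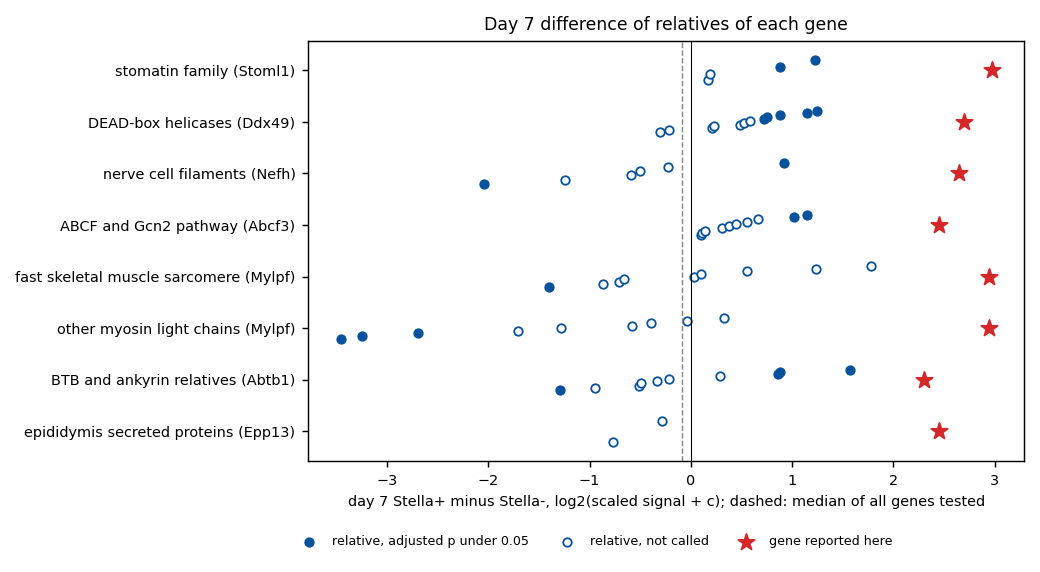
Day 7 Stella-positive minus Stella-negative difference on the log2(scaled signal + c) scale for the relatives of each gene (filled, adjusted p under 0.05; open, not called), with the gene itself as a star and the median of all genes tested, -0.088, as a dashed line. Each star, which was chosen for its size, lies at 2.30 or more, to the right of all its relatives, which end at 1.78. The nerve cell filaments shown for Nefh include Vim and Sync, which are not particular to nerve cells.

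Epp13 had few measurable relatives. Of 12 listed genes of secreted epididymal proteins, 7 were measured and 2 passed the filter, Lcn8 at -0.77 ± 0.46 and Rnase10 at -0.29 ± 0.46, neither of them called. In the ESC sort, 0 genes of the 8 lists of relatives were called, where 1 of 14007 genes was.

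The 7 genes lie on 6 chromosomes, Mylpf and Epp13 both on chromosome 7. Of all 14007 genes tested in the day 7 sort, 1434 were called higher and 1270 lower. Of the 28 nearest protein-coding genes, 2 on each side, 21 were tested there. Of these 21, 3 rose, 1 fell and 17 did not pass, with a median of 0.17. The risers were the replication licensing gene Mcm2 beside Abtb1 (1.43 ± 0.24), Sugp2 beside Ddx49 (1.12 ± 0.24) and the RNA export gene Thoc5 beside Nefh (0.88 ± 0.23). Homer3, a synaptic scaffold gene that overlaps Ddx49 in the annotation, fell by 0.96 ± 0.31, opposite to Ddx49. Ap1b1, which overlaps Nefh, was at 0.44, and Septin1, which overlaps Mylpf, at -0.17, neither called. The direct neighbours of Stoml1, Pml and Loxl1, were at 0.77 and -0.48, and those of Epp13, Zscan5b and Zfp667, at 0.49 and 0.17, and none of the 4 was called.

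Across the 27 processing alternatives, the day 7 difference of the 9 probe sets kept its sign. Several of them could not change it: other filters, a constant prior variance, only the 2 groups, and leaving out an ESC array. The genes were also chosen on this difference. For the brightest probe sets it stayed between 1.69 (Abtb1 with a constant of 1/4 of the trimmed mean) and 4.33 (Mylpf with the Gapdh ratio as a covariate). Ddx49 1435681_s_at ran from 0.28 with that covariate to 1.28, and Abcf3 1426748_s_at from -0.62 to -0.19.

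**Figure D5:**
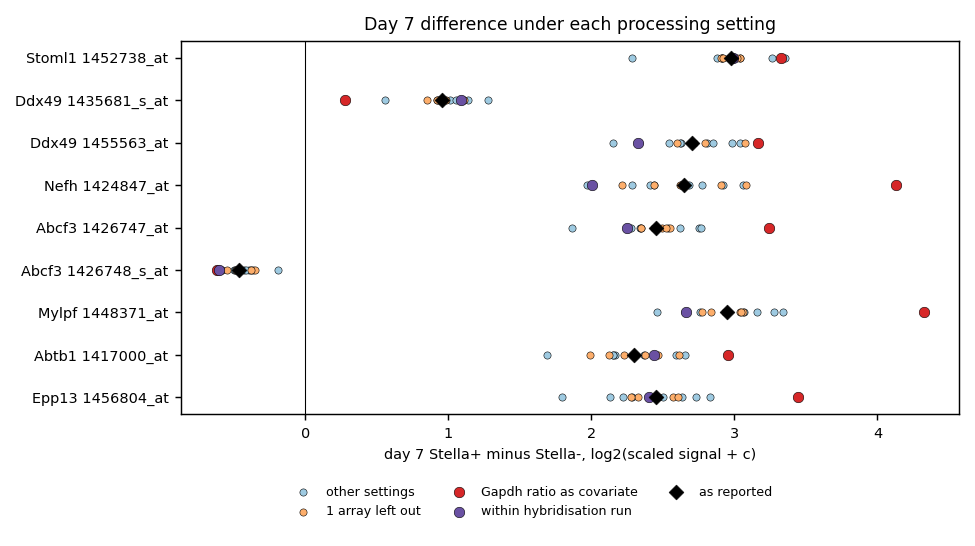
Day 7 Stella-positive minus Stella-negative difference of the 9 probe sets under each processing setting, with the reported value as a black diamond, arrays left out in turn in orange, the within-run value in purple and the Gapdh ratio as a covariate in red. The 7 brightest probe sets stay at 1.69 or above, and Abcf3 1426748_s_at stays below 0.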

How the data were processed

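The values the authors deposited are linear signal intensity made with MAS5, per the submitters' processing notes. Its version and target intensity are not stated. The deposited intensity columns were scaled to a common 2% trimmed mean of 105.2 over the 45037 probe sets without the 64 controls. A constant c of 10.5, 1/10 of that mean, was added before log2. Probe sets above their own array's median on at least 2 arrays were kept. Scaling gave the arrays no common median, which can shift dim probe sets between groups. The platform annotation gave 1 symbol to 34945 probe sets, several to 932 and none to 9160. A gene is represented by the brightest of its 1-symbol probe sets. The 14007 genes tested, or kept by the filter, are those whose brightest probe set was kept. The table had 0 unmapped columns and 0 identical pairs of columns.

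Group means of all 13 arrays were fitted together with limma 3.58.1 in R 4.3.3, using eBayes with trend (8.88 prior degrees of freedom). Two-sided p-values were adjusted over 30023 probe sets (Benjamini-Hochberg); calls are those under 0.05. Replicates correlated at 0.846 to 0.971. Groups came from sample titles, hybridisation runs from the array description files. The number of arrays limits the precision.

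Members and gene lists were chosen with earlier results of these data known. Named genes are the members, Dppa3, the 3 most correlated genes per member and the nearest protein-coding neighbours in the GRCm38.p6 gene order. Named too are up to 4 called relatives per list by size of the day 7 difference. Other genes were named after their values were seen. Same-numbered arrays had correlations of -0.13 to 0.07 over 21 pairs of deviations from group means by title number. By the description files' own numbers the correlations were -0.02 to 0.11 over 15 pairs. In groups of 2 arrays the deviations mirror each other, so some values repeat. Low correlations cannot show that samples were unpaired, and the main model used no pairing.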

Additional observations from a re-analysis of the deposited data

Results flagged for a closer look

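Nefh was -0.41 ± 0.36 (SE) in Stella-positive against Stella-negative ESC, with both Stella-positive arrays (121 and 99.3) below all 3 Stella-negative arrays (171, 150.4 and 129.7). At day 7 all 4 Stella-positive arrays were above both Stella-negative ones, a difference of 2.65 ± 0.35. The opposite directions drew attention to it, but 22.8% of all genes did not overlap in the ESC sort in either direction. The 95% confidence interval of Nefh in the ESC sort was -1.18 to 0.35 (limma adjusted p = 0.9999). With the description files' numbers as a block, Nefh was at 0.0048 in that sort. The day 7 contrast chose the gene, so the difference between the 2 sorts was not tested here.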

How the results depend on the processing

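The 27 alternatives changed 1 choice each; the block by the description files' numbers was added after seeing the data. The day 7 sort called 4926 probe sets, 1740 within hybridisation runs, 3137 with only the 2 groups, and 1198 to 6141 with 1 array left out (1198 and 1820 without Stella-negative day 7 arrays 1 and 2). The ESC sort called 1, with 0 under a constant prior variance, within runs and with only the 2 groups (unadjusted p under 0.05 for 713, 785 and 1839 probe sets), 2 with array weights, and 1 to 5 with 1 array left out (2 without Stella-negative ESC array 3, 4 and 5 without Stella-positive ESC arrays 1 and 2).

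Unsorted against Stella-negative ESC called 609, with 247 under median scaling, 402 with no filter, 107 with a constant prior variance, 1969 with array weights, 290 with the description files' numbers as a block, 1434 with the Gapdh ratio as a covariate and 1931 without Stella-positive day 7 arrays 3 and 4. It called 44 to 1299 with 1 array left out (233 and 143 without Stella-negative ESC arrays 1 and 2, 44 without unsorted array 1, 1299 without Stella-positive day 7 array 4). Against Stella-positive ESC it called 1042, and in the same order 632, no large change with no filter (712), 157, 2016, 60, 1983 and 2490, with 59 for only the 2 groups. With 1 array left out it called 48 to 1868 (186 and 311 without Stella-positive ESC arrays 1 and 2, 48 without unsorted array 1, 1868 without Stella-positive day 7 array 4). Runs could not be a block for unsorted ESC.

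The replicate block by title number gave 4823 calls at day 7, 3 in the ESC sort, 1397 and 1884 for unsorted ESC; it called Ddx49 against Stella-negative ESC (-0.99, adjusted p = 0.0474). Under median scaling 79.9% of day 7 calls were higher instead of 52.1%, and 28.7% and 26.3% instead of 53.9% and 55.1% for unsorted ESC. The median over all probe sets became 0.13 instead of -0.12, and -0.13 and -0.19 instead of 0.058 and 0.099.

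Uncalled member differences that changed sign were, in the ESC sort, Stoml1 (-0.044 within runs, -0.068 with the description files' block, -0.044 to 0.75 with 1 array left out), Epp13 (-0.21, -0.15, and -0.21 to 0.88), Nefh (0.0048 with that block) and Ddx49 (-0.43 to 0.090 with 1 array left out). Against Stella-negative ESC, unsorted Stoml1 (-0.63 to 0.16) and Abtb1 (-0.88 to 0.042) did so without unsorted array 2. Against Stella-positive ESC, Abtb1 (-0.68 to 0.24) and Abcf3 (-0.53 to 0.11, with 0.024 without Stella-positive ESC array 2) did, and Nefh was at -0.051 under median scaling and -0.30 with the description files' block. The causes were not tested. A lone array left in a group is assumed to vary like the others. Low signal limits Abcf3 and Ddx49, each with 1 probe set under the filter.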
